A study of Mus musculus with 4 samples.

Results

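The genes described here are 9 that encode matrix proteases and their inhibitors: Timp1, Timp2, Timp3, Timp4, Mmp2, Mmp3, Mmp14, Adamts1 and Plau. They were found by symbol in the deposited table, which lists 23482 genes, and all 9 are in it. The table holds RNA-seq of quadriceps muscle from FVB/N mice, 6 to 8 weeks old, with 2 libraries of non-transgenic controls and 2 of Thbs1 transgenic mice, which overexpress thrombospondin-1, a secreted matricellular glycoprotein. Strain, age and muscle are given alike for both groups. The promoter that drives the transgene and the number of animals behind each library are not stated in the labels. The p-values measure only the spread between these libraries, which may be technical.

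The extracellular matrix of muscle is remodelled by secreted and membrane-bound proteases. Matrix metalloproteinases are zinc enzymes made as inactive proenzymes, and tissue inhibitors of metalloproteinases (TIMPs) bind the active site of the mature enzyme. TIMP-2 has a further role, since it forms the complex through which the membrane-bound MMP-14 activates pro-MMP-2. ADAMTS proteases carry thrombospondin type 1 repeats and cleave proteoglycans, and urokinase (Plau) turns plasminogen into plasmin, which degrades fibrin and can activate other proteases. Thrombospondin-1 itself binds MMP-2 and the clearance receptor LRP1.

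The libraries held 18815221 to 20053685 reads in genes. Levels are in RPKM, reads per length of gene model and per size of the library. Thbs1 stood at 8.61 and 12.2 RPKM in controls and reached 12900 and 15411 RPKM in transgenics, and it took 12.0% and 14.4% of the transgenic reads. The muscle fibre genes Ckm, Acta1, Myh4, Mb and Tnnt3 were abundant in all 4 libraries. Their summed level was 22639 and 22816 RPKM in controls and 14527 and 15471 RPKM in transgenics, with a median log2 fold change of -0.81, and 0 of the 5 passed the test. Control library 2 stood below control library 1 for 63.4% of the 10015 genes tested and for 7 of the 9 genes described here, all but Timp3 and Timp4. Without control library 2 only 1 of the 10015 genes, Thbs1, passed the test described below, so every other limma call made on all 4 libraries was lost without that library. Transgenic library 1 stood apart for adipocyte markers, whose summed level was 888 RPKM there against 101 to 141 RPKM in the other libraries.

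RefSeq promoter windows on GRCm38.p6, reaching from 250 bases before to 50 bases after the start of the gene, were found for 7 of the 9 genes. Those of Timp1, Mmp14 and Mmp3 are shown because their mean RPKM was over 3-fold higher in transgenic muscle, and that of Timp4 because its mean RPKM was lower by the largest factor. Each reads 5′ to 3′ on the strand of the gene. Capitals mark matches, on either strand, to the AP-1 letters TGANTCA, the GC box GGGCGG and the variant TGAGTAA, which was added after the sequences were seen.
Timp1, chrX:20869916-20870215, plus strand: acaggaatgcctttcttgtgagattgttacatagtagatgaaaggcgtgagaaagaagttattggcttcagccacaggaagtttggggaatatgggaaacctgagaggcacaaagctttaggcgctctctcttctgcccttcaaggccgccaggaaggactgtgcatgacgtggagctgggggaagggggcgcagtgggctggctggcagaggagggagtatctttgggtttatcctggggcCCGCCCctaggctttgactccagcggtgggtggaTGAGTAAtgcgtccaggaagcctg
Mmp14, chr14:54431348-54431647, plus strand: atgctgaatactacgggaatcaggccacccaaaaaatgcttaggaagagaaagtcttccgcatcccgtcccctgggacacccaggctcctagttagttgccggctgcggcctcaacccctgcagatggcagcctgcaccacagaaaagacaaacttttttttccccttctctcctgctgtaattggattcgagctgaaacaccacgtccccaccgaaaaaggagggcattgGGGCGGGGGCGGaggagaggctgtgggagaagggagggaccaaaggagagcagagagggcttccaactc
Mmp3, chr9:7445572-7445871, plus strand: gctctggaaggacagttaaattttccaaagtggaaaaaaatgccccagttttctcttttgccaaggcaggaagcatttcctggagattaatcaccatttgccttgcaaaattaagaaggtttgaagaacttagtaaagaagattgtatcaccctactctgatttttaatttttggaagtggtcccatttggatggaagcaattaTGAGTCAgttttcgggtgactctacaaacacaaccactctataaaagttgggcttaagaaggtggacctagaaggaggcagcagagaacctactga
Timp4, chr6:115252156-115252455, minus strand: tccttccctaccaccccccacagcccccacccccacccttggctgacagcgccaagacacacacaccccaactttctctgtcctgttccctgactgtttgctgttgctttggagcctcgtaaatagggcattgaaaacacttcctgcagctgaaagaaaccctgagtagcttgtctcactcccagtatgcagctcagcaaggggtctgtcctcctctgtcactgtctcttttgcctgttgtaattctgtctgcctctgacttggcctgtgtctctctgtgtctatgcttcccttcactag

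Of the 7 windows, 1 held the AP-1 letters. That was the window of Mmp3, where the match began 46 bases before the start. Over all 32851 promoter windows, 7.81% held these letters. The Timp1 window held the variant TGAGTAA, which 2.68% of all windows held, and a GC box, which 35.7% held. Mmp14 had a pair of adjacent GC boxes, and Timp4 had no match to any motif searched. A GC box was in 5 of the 7 windows, those of Timp1, Timp2, Timp3, Mmp14 and Adamts1. The CRE letters TGACGTCA and the ER stress element, searched as CCAAT and CCACG with 9 bases between them, were in 0 of the 7 windows, against 1.79% and 0.119% of all windows. A match describes letters only.

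In transgenic muscle 2 of the 9 genes rose, Timp1 and Mmp2, and 0 fell. The test was limma on log2(RPKM + 1) over all genes that reached 1 RPKM in 2 or more libraries, with a Benjamini-Hochberg adjusted p under 0.05 as the threshold, and 8 of the 9 genes entered it. Of all 10015 genes tested 7.47% passed in either direction and 6.25% were higher. The median log2 fold change of the 8 tested genes was 0.59, against 0.10 over all tested genes. The 2 groups did not overlap in RPKM for 7 of the 8 tested genes, where 58.1% of all tested genes did not overlap, so that count by itself separates these genes little from the rest. In bulk tissue, more cells of a type and more RNA per cell cannot be told apart.

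**Figure D1:**
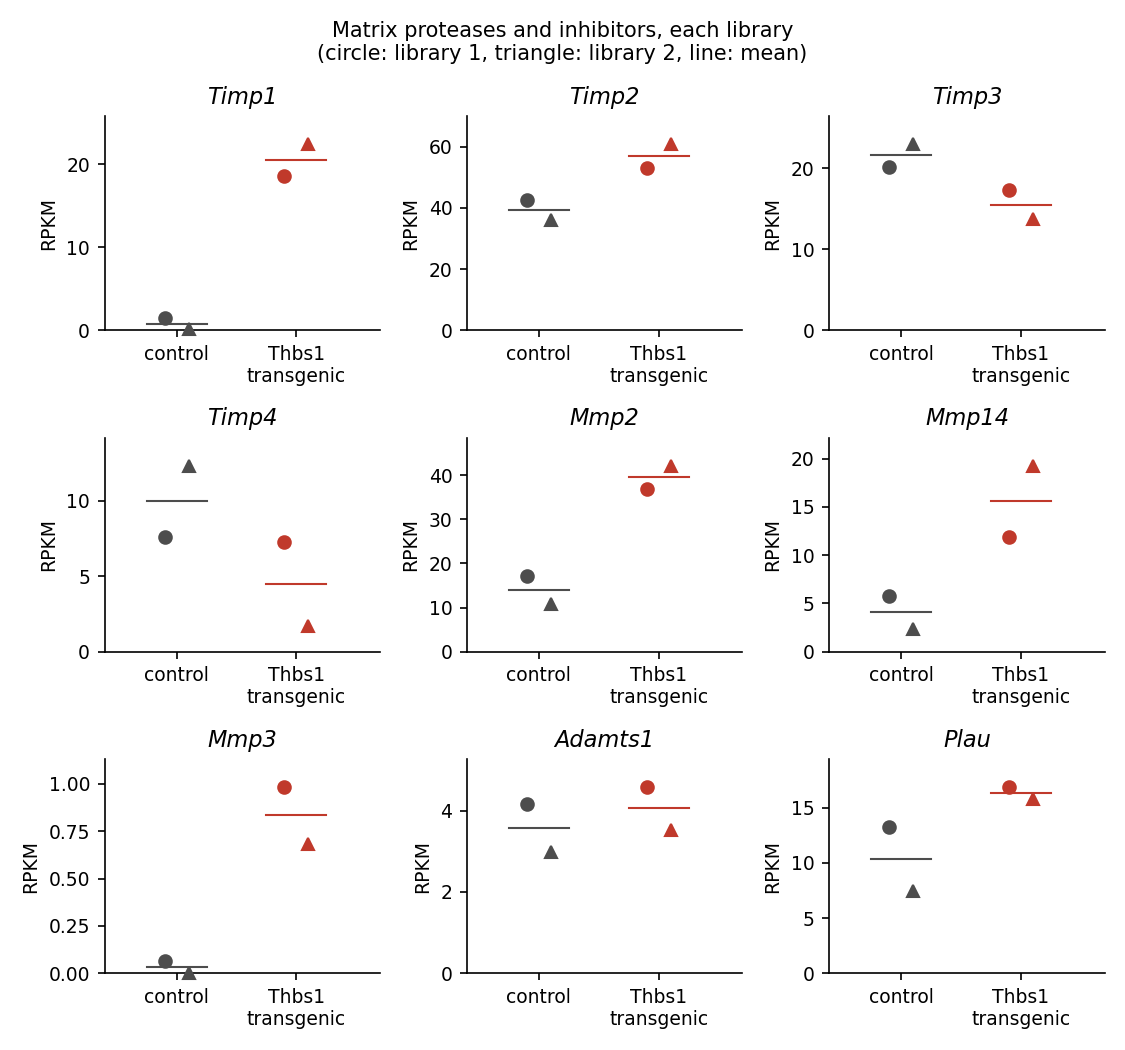
RPKM (y axis, from 0, each panel with its own scale) of the 9 genes in each library, with control libraries in grey and transgenic libraries in red. Circles are library 1, triangles library 2 and lines the mean of a group. For Timp1 and Mmp3 the control libraries lie near 0, while Adamts1 is the one gene whose groups overlap.

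Timp1, which encodes the secreted inhibitor TIMP-1, had the largest log2 fold change of the 8 tested genes of this group. Controls had 1.45 and 0.141 RPKM, transgenics 18.6 and 22.5 RPKM. Both transgenic libraries lay more than 10-fold above the higher control. In reads these values were 85 and 8 against 1127 and 1343. The group means were 0.797 ± 0.928 and 20.5 ± 2.71 RPKM (SD, n = 2), a ratio of 25.8, and the log2 fold change of RPKM + 1 was 3.68 with an SE of 0.37 (limma adjusted p = 0.0131). The control libraries differed 10.3-fold from each other, so the ratio depends on which control is used, while the transgenic libraries differed by less. Only control library 1 reached 1 RPKM, so the gene passed the filter through its transgenic values, which favours a rise. The call was lost without control library 2 (log2 fold change 3.13, adjusted p = 0.0668) and with no filter on low values (adjusted p = 0.0565). Timp1 lies at chrX:20870166-20874735 on the plus strand of GRCm38, within Syn1, a synapsin gene of the opposite strand. None of its exons overlap those of another gene. Syn1 had 2 and 0 reads in the control libraries and 11 and 22 reads in the transgenic libraries, far fewer than Timp1 in the transgenics.

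The other inhibitors did not pass the test. Timp2, which encodes the most abundant TIMP of this muscle by RPKM and the partner of MMP-14 in MMP-2 activation, was at 42.5 and 36.1 RPKM in controls and 53.0 and 60.8 RPKM in transgenics. All transgenic values lay above all control values, with a ratio of means of 1.45 and a log2 fold change of 0.52 (SE 0.17, limma adjusted p = 0.13). Scaling by median-of-ratios size factors, which moved the median of all tested genes from 0.10 to -0.04, left Timp2 at a log2 fold change of 0.34. Taking the Thbs1 reads out of the library sizes moved that median to 0.26 and Timp2 to 0.73.

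Timp3, whose product is held in the matrix by glycosaminoglycans, was at 20.2 and 23.0 RPKM in controls and 17.3 and 13.8 RPKM in transgenics. The transgenic values lay below the control values without overlap. The log2 fold change came to -0.46 (SE 0.18), with a limma adjusted p of 0.176. In the authors' deposited table the adjusted p of Timp3 was 0.0901, with a control to transgenic ratio of 1.60.

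Timp4, a TIMP known from heart, muscle and fat, was at 7.59 and 12.3 RPKM in controls and at 7.24 and 1.69 RPKM in transgenics. Transgenic library 1 lay just under control library 1, whereas transgenic library 2 lay far below all others, and the transgenic libraries differed 4.29-fold. The log2 fold change was -1.19 with an SE of 0.55 (limma adjusted p = 0.238), with a 95% interval from -2.58 to 0.21. Without transgenic library 1 the log2 fold change was -1.99 and passed the threshold (adjusted p = 0.0136), and without transgenic library 2 it was -0.38 (adjusted p = 0.545). Transgenic library 1 is also the one with the high adipocyte markers. Their summed level was 116 and 141 RPKM in controls and 888 and 101 RPKM in transgenics, and 0 of the 3 tested of 6 markers passed the test. Their part in the Timp4 values was not tested.

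Timp3 and Timp4 both lie within synapsin genes of the opposite strand, Syn3 at chromosome 10 and Syn2 at chromosome 6, as Timp1 lies within Syn1. Timp4 also lies within Gm17482, a gene of the opposite strand. Timp3 spans chr10:86300372-86349506 and Timp4 spans chr6:115241892-115252205 on GRCm38. Exons of Timp3 overlap exons of Syn3, and exons of Timp4 overlap exons of Syn2, so shared reads cannot be told apart where strand is not given. Syn3 had 6 to 14 reads and Syn2 8 to 25 reads per library, far fewer than either inhibitor gene.

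Summed over the 4 TIMP genes, the level was 71.8 and 71.5 RPKM in the control libraries and 96.1 and 98.7 RPKM in the transgenic libraries. Timp1 made up 2.02% and 0.197% of that sum in controls and 19.4% and 22.7% in transgenics. The share of Timp2 was 59.3% and 50.4% in controls and 55.1% and 61.6% in transgenics, so those ranges overlap. Timp3 went from 28.1% and 32.1% to 18.0% and 13.9%, and Timp4 from 10.6% and 17.3% to 7.53% and 1.71%. These shares are descriptions with no test. They add to a fixed whole, so the gain of Timp1 lowers the others.

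**Figure D2:**
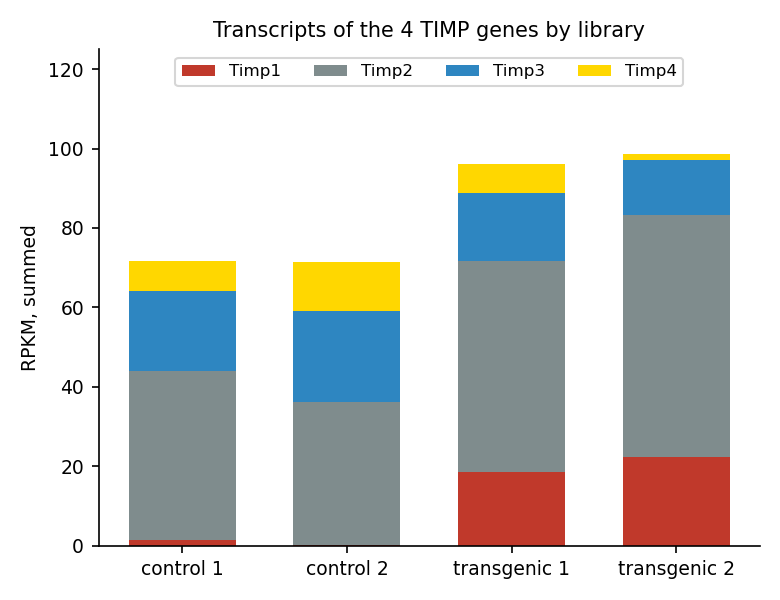
RPKM of Timp1, Timp2, Timp3 and Timp4 stacked for each library (y axis from 0). The stacks reach 71.8 and 71.5 RPKM in controls and 96.1 and 98.7 RPKM in transgenics, and Timp1, in red, is 19.4% and 22.7% of the transgenic stacks.

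Among the metalloproteinases, Mmp2, which encodes the gelatinase MMP-2, rose. It was at 17.2 and 10.9 RPKM in controls and 36.9 and 42.1 RPKM in transgenics. The lower transgenic library lay well above the higher control library. The group means were 14.0 ± 4.50 and 39.5 ± 3.73 RPKM (SD, n = 2), a ratio of 2.81, and the log2 fold change was 1.46 with an SE of 0.24 (limma adjusted p = 0.0344). The call was lost without control library 2 (log2 fold change 1.15, adjusted p = 0.102). It was lost, too, when no gene was filtered (adjusted p = 0.0835) and when the replicate number was a block (adjusted p = 0.057). Mmp2 lies at chr8:92827291-92853420 on the plus strand of GRCm38, with no exon shared with another gene.

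Mmp14, which encodes the membrane-bound activator of pro-MMP-2, was at 5.74 and 2.40 RPKM in controls and 11.9 and 19.3 RPKM in transgenics. The transgenic libraries lay above both controls. Its log2 fold change of 1.76 was above that of Mmp2, but with an SE of 0.39 its limma adjusted p was 0.0613, short of the threshold. The control libraries differed 2.40-fold. Mmp14 passed without transgenic library 1 (log2 fold change 2.08, adjusted p = 0.0265), with the Thbs1 reads taken out of the library sizes (1.95, adjusted p = 0.0375) and with limma-voom on the reads (2.02, adjusted p = 0.0479). It was farther from the threshold without control library 2 (1.26, adjusted p = 0.169), when no gene was filtered (adjusted p = 0.131) and under the replicate block (adjusted p = 0.0908). It spans chr14:54431612-54445364 on the plus strand.

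Mmp3, which encodes stromelysin-1, a protease of broad range that can activate other metalloproteinases, was hardly detected in controls. It had 4 and 0 reads in the control libraries and 64 and 44 reads in the transgenic libraries, or 0.0636 and 0 against 0.984 and 0.685 RPKM. Both transgenic libraries lay above both controls, but the gene stayed under the filter of 1 RPKM. Per read of the libraries the ratio was 25.9, with an exact 95% interval of 9.82 to 96.7 that covers counting error only. When no gene was filtered, it had a log2 fold change of 0.83 (SE 0.11) and a limma adjusted p of 0.0629. In the authors' deposited table its adjusted p was 0.000219. It spans chr9:7445822-7455975 on the plus strand, and its window above holds the AP-1 letters.

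Adamts1, a secreted protease that cleaves versican and aggrecan, was at 4.16 and 2.97 RPKM in controls and 4.58 and 3.53 RPKM in transgenics. The groups overlapped, and the log2 fold change was 0.15 with an SE of 0.20 (limma adjusted p = 0.671), with a 95% interval from -0.36 to 0.66. Its sign was negative without control library 2 (-0.04), and the gene lies at chr16:85793827-85803113 on the minus strand.

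Plau, which encodes the urokinase plasminogen activator, was at 13.2 and 7.49 RPKM in controls and 16.9 and 15.8 RPKM in transgenics. The groups did not overlap, but control library 1 lay near the transgenic values. The log2 fold change was 0.66 with an SE of 0.27 (limma adjusted p = 0.193), with a 95% interval from -0.03 to 1.34. Without control library 1 it was 1.03, and without control library 2 it was 0.28. Plau lies at chr14:20836660-20843385 on the plus strand.

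**Figure D3:**
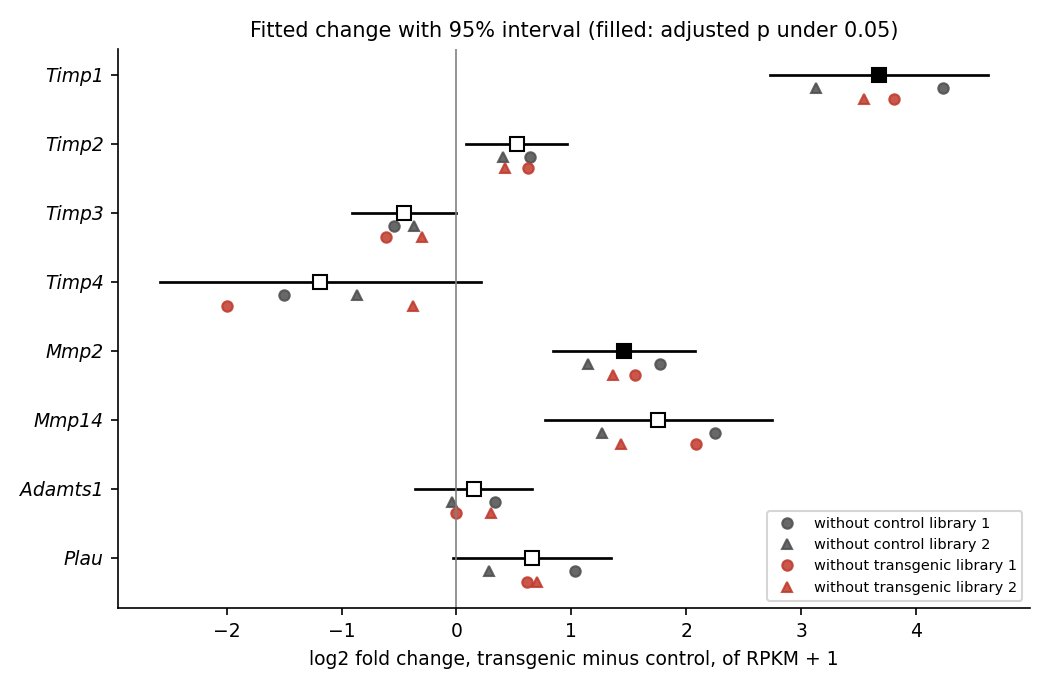
Log2 fold change of RPKM + 1, transgenic minus control, of the 8 tested genes (squares) with 95% intervals (lines). Filled squares passed the threshold, and the smaller marks below each line give the value with 1 library left out. Timp1 and Mmp2 are filled, and the marks of Timp4 spread from -1.99 to -0.38.

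By RPKM, which is per length of gene model, the order of the levels in controls was Timp2, Timp3, Mmp2, Plau, Timp4, Mmp14, Adamts1, Timp1 and Mmp3. In that order Mmp2, Plau and Timp4 overlapped one another between libraries, as did Mmp14 and Adamts1. In transgenics the order was Timp2, Mmp2, Timp1, Plau, Mmp14, Timp3, Timp4, Adamts1 and Mmp3. Plau, Mmp14 and Timp3 overlapped one another there, as did Timp1 and Mmp14, and Timp4 and Adamts1. By its mean Timp1 had rank 8 in controls and rank 3 in transgenics, where its place above Mmp14 lay within the spread.

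The wider lists of matrix turnover genes held 99 listed genes, each counted once, of which 43 were tested. Of those 7 rose and 0 fell, where 6.25% of all tested genes rose. The median log2 fold change was 0.31 against 0.10 over all tested genes. Outside the 9 genes, 5 of 35 tested rose. The share of 6.25% is also the one to set beside the count of each list below. Of 5 metalloproteinase inhibitors 1 rose, and the median was -0.36. The 1 inhibitor outside the TIMPs, Reck, a membrane-anchored inhibitor, had a log2 fold change of -0.36 (limma adjusted p = 0.26). Of 23 matrix metalloproteinases 7 were tested and 1 rose. For 2 of the 7, Mmp11 and Mmp19, both controls were under 1 RPKM, so their transgenic values alone brought them past the filter, and the median of 0.50, the value of Mmp11, gives no direction for the list. The collagenase gene Mmp13 was listed at 0 in both controls and at 0.170 and 0.0493 RPKM in transgenics, and the gelatinase gene Mmp9 was at 0.0658 to 0.490 RPKM in all libraries. Both were named after their values were seen.

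Of 19 ADAMTS proteases 4 were tested and 0 rose, with a median of 0.16. Adamts2, the procollagen N-proteinase, had the smallest p of these, with a log2 fold change of 0.32 (limma adjusted p = 0.342). Of 7 ADAMTS-like and related proteins 3 were tested and 0 rose, led by Adamtsl2 at 0.52 (adjusted p = 0.1). Of 8 ADAM proteases 5 were tested and 0 rose, led by Adam19 at 0.53 (adjusted p = 0.125), which only the transgenic libraries brought past the filter. Adamtsl2 passed once the Thbs1 reads were taken out of the library sizes (adjusted p = 0.045).

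Of 11 genes of plasminogen activation 7 were tested, 2 rose and 0 fell, with a median log2 fold change of 0.66. Anxa2, an annexin that binds plasminogen and its activator at the cell surface, went from 45.5 and 28.5 to 117 and 98.5 RPKM (log2 fold change 1.55, adjusted p = 0.0346). The call of Anxa2 was lost without control library 2 (adjusted p = 0.103) and with no filter (0.0845). The urokinase receptor gene Plaur, named after its values were seen, was at 0.195 and 0.0892 RPKM in controls and 1.0 and 0.847 RPKM in transgenics, so it was not tested. Plasminogen itself, Plg, was listed at 0 in all libraries.

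Of 15 other matrix proteases and their helpers 10 were tested, 2 rose and 0 fell, with a median of 0.43. Cpxm1, a secreted carboxypeptidase-like protein, went from 0.831 and 1.48 to 7.38 and 8.77 RPKM (log2 fold change 2.09, SE 0.20, limma adjusted p = 0.0127). Only control library 2 reached 1 RPKM, so Cpxm1 passed the filter through its transgenic values, which favours a rise. The call of Cpxm1 was lost without control library 2 (adjusted p = 0.0668) and with no filter (0.0511). Prss23, a secreted serine protease, went from 16.1 and 15.3 to 26.7 and 33.1 RPKM (log2 fold change 0.88, adjusted p = 0.0462), and its call was lost under 9 of 11 alternatives, among them median-of-ratios scaling (adjusted p = 0.1), the replicate block (0.0704) and each library left out (0.0531 to 0.167). Of 11 proteoglycan substrates and hyaluronan genes 2 were tested and 1 rose, Bgn, the small proteoglycan biglycan, with a log2 fold change of 2.07 (adjusted p = 0.0194, and 0.0745 without control library 2 and 0.0629 with no filter). The large ADAMTS substrates Vcan and Acan were below the filter.

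**Figure D4:**
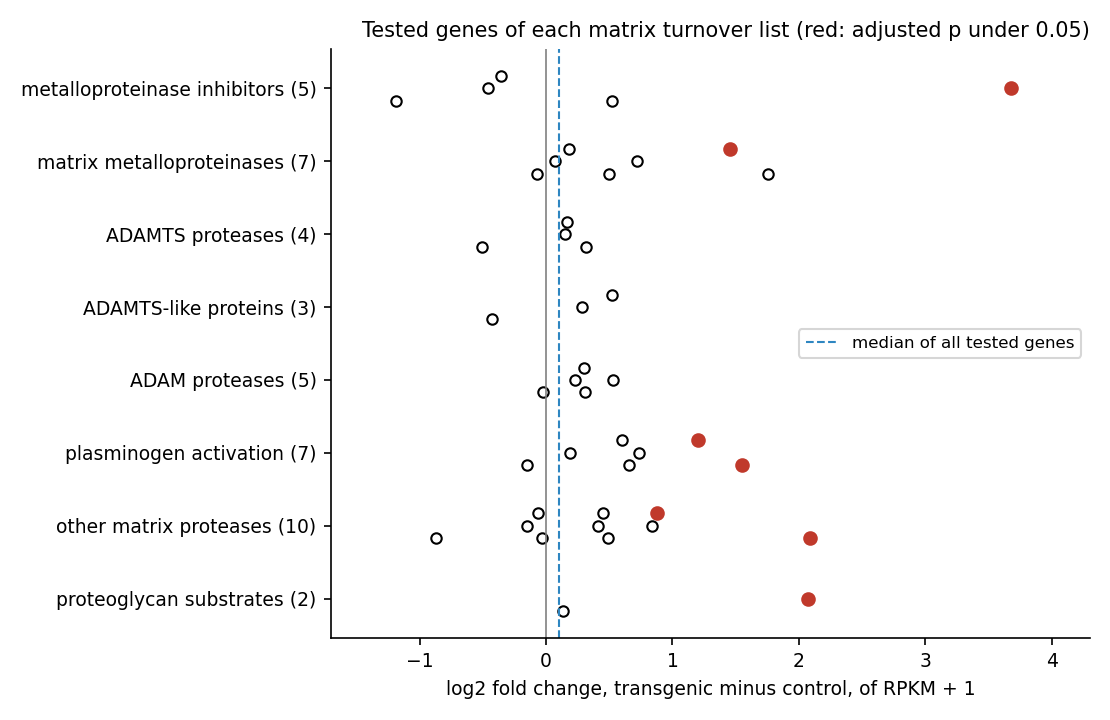
Log2 fold change of RPKM + 1, transgenic minus control, of each tested gene (points) in 8 lists of matrix turnover genes, with the number tested in brackets. Red points passed the threshold, and the dashed line is the median of all tested genes, 0.10. The 7 red points are all on the side of higher values.

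Markers of some other cell types differed between the groups, while those of others did not pass the test or were not tested. The macrophage markers had a summed level of 27.9 and 23.8 RPKM in controls and 96.1 and 88.0 RPKM in transgenics, and 7 of 8 tested rose, of 9 found in the table. For 1 of the tested, Cd68, both controls were under 1 RPKM, so its transgenic values alone brought it past the filter. Over the same libraries the summed muscle fibre markers were lower in both transgenic libraries, as given above. Fibro-adipogenic markers summed to 466 and 278 RPKM in controls and 578 and 515 RPKM in transgenics, and 2 of 8 rose, Lum and Pi16. In that list control library 2 was again the lowest. Neutrophil markers summed to 0 to 1.39 RPKM and T, B and NK cell markers to 0.0468 to 1.18 RPKM, with Camp, Ngp and Ms4a1 at 0 in all libraries. Of the endothelial markers 0 of 7 passed, with sums of 40.8 and 30.3 RPKM in controls and 40.0 and 22.6 RPKM in transgenics. The part of macrophages and of fibro-adipogenic cells in the rises of Timp1 and Mmp2 was not tested. Of the tendon markers 2 of 4 tested rose, Scx and Thbs4. Fmod went from 95.9 and 58.7 RPKM in controls to 35.2 and 39.2 RPKM in transgenics (limma adjusted p = 0.0862). Tnmd and the untested Mkx overlapped between the groups. Of the satellite cell markers 1 of 2 tested rose, Vcam1. Pax7, not tested, went from 0.285 and 0.285 RPKM in controls to 0.121 and 0.131 RPKM in transgenics. Myf5, not tested, overlapped. These tendon and satellite cell markers were named after their values were seen. Of the smooth muscle and pericyte markers 0 of 6 passed, and of the Schwann cell markers 0 of 3.

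The genes with the profile nearest to Timp1 over the 4 libraries, by Euclidean distance of centred log2(RPKM + 1) values, were Sln at a distance of 0.40, Fkbp11 at 0.53 and Mzb1 at 0.53. Sln, the calcium pump inhibitor sarcolipin, was at 3.92 and 0.944 RPKM in controls and 35.8 and 57.4 RPKM in transgenics, and like Timp1 it was lower in control library 2. With 0.944 RPKM there, Sln needed a transgenic library to pass the filter. Fkbp11, at 0.729 and 0.198 RPKM, and Mzb1, at 0.594 and 0 RPKM, were under 1 RPKM in both controls. The transgenic values of Fkbp11 and Mzb1 alone brought them past the filter, which favours a rise. Nearest to Mmp2 were Slc25a24, Olfml3 and Wdyhv1, at distances of 0.08, 0.09 and 0.12. Slc25a24, at 1.31 and 0.408 RPKM in controls, also needed a transgenic library to pass the filter. Olfml3, a secreted olfactomedin-like protein, was at 6.54 and 4.15 RPKM in controls and 15.6 and 16.7 RPKM in transgenics.

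Of the 9 genes, 4 in the authors' deposited table have an adjusted p under 0.1, against 9.20% of the 17769 genes with a p there. Timp1 (2.78e-16), Mmp3 (0.000219) and Mmp2 (0.000723) are higher in transgenic muscle in the authors' deposited table, and Timp3 (0.0901) is lower. Mmp14 has an adjusted p of 0.15 in the authors' deposited table. Those values come from the same 4 libraries and are no independent evidence.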

How the data were processed

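RNA from quadriceps muscle was sequenced in 2 libraries per group, with group and replicate read from each title. The authors deposited RPKM per library, base means, which are signal values (reads over a size factor), the ratio of control to transgenic base means, and p-values with adjusted p-values. Per the submitters' processing notes, bcl2fastq, TopHat and edgeR were used with mm10. No version is named. Whether reads were stranded is not stated. RPKM and base means together fix the reads behind each value, and 100% of values came out whole within 1e-06 of a read. RPKM divides by all reads, the abundant Thbs1 included, so other genes of the transgenic libraries read lower.

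Differences were tested two-sided by limma 3.58.1 (R 4.3.3, trended variance) on log2(RPKM + 1), which understates changes of low genes. The test took genes that reached 1 RPKM in 2 or more libraries, and p-values were adjusted by Benjamini-Hochberg over all 10015 of them. The fit was tested on simulated reads with known changes. These gave all genes the same dispersion and no library a shift of its own. They lacked the gap between the control libraries seen here, so they do not check the calls. Named genes are Thbs1, the 9 members, the called or else leading gene of each list (1 called gene is not reported here) and the nearest profiles of called members. Others are marked as named after their values were seen. The members and lists were chosen with earlier results of these data known. Same-numbered libraries share only a number. Gene spans are from GENCODE M21 and promoters from RefSeq. Tables and figures were made in Python 3.11.15 (pandas 2.3.3, matplotlib 3.10.9). Alternatives are listed in the closing section.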

Additional observations from a re-analysis of the deposited data

How the results depend on the processing

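With 2 libraries per group, calls rest on few values. The setting with limma-voom and median-of-ratios factors together was chosen after seeing the data. All genes changed numbered 748 (626 higher, 122 lower). They were 146 (135 and 11) with no filter, 1561 (1458 higher) without Thbs1 in the library sizes and 1705 (1303 and 402) at an adjusted p under 0.1. Median-of-ratios factors gave 247 lower genes, and 469 when joined to limma-voom. Higher genes made up 83.7% of the changed genes, 67.0% with these factors and 54.6% with both. With 1 library left out, between 1 and 651 genes changed (1 to 593 rose, 0 to 104 fell). The fewest were without control library 2, although 1987 had an unadjusted p under 0.05 by limma there. A group with 1 library left is assumed to vary like the other. Of the 9 genes 2 were called, all higher. With no filter 0 were, where 3783 of all genes had an unadjusted p under 0.05 by limma. With the filter, limma-voom called 3 of the 9. Over the libraries left out 0 to 4 were called, 0 to 3 higher and 0 to 1 lower.

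Timp1 kept its call in 9 of 11 alternatives. Its log2 fold change was 3.68 with no filter (adjusted p = 0.0565) and 3.13 to 4.23 over the libraries left out. It was 5.07 with a pseudocount of 0.1, 5.43 with limma-voom and 5.18 with limma-voom and median-of-ratios factors. Mmp2 kept its call in 8 of 11, with 1.46 and no call with no filter (0.0835), and 1.15 to 1.77 over the libraries left out. Mmp14 passed in 4 of 11, at 1.95 without Thbs1 in the library sizes, 2.02 with limma-voom, 1.82 with limma-voom and median-of-ratios factors, and 1.26 to 2.25 over the libraries left out. Timp4 went from -1.99 to -0.38 over the libraries left out. Timp2, Timp3, Adamts1 and Plau passed in 0 of 11, and Adamts1 changed sign when control library 2 or transgenic library 1 was left out. Blocking on the replicate number gave 561 calls in all, 64 of them lower, and 1 of the 9, Timp1. Under that block Mmp2 was at 1.46 (adjusted p = 0.057). Same-numbered libraries deviated together with a correlation of 0.0742. Among the other genes named from the matrix turnover lists and the nearest profiles, 10 lost a call under at least 1 alternative and 0 turned direction. The cell type markers are not in that count.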
